A study of Rattus norvegicus with 2 samples.

Results

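The spots for subunits of ATP synthase and of cytochrome c oxidase were followed in cultured rat carotid body cells kept at 21% or 1% oxygen. Members were all rows whose deposited name holds the words ATP synthase, cytochrome c oxidase or cytochrome oxidase, which gave 14 of the 1185 genes on the array. These are 6 subunit genes of mitochondrial ATP synthase, 7 of cytochrome c oxidase and 1 of the vacuolar enzyme, a different proton pump that the name rule also takes in. The cells came from Sprague Dawley rats and were plated as primary cultures of 16 pooled carotid bodies each. Normoxia cultures were held at 21% oxygen and chronic hypoxia cultures at 1% oxygen, both for 7 days in the same serum and nerve growth factor medium. Amplified, radiolabelled cDNA was hybridised to nylon membranes (Atlas Rat 1.2), 3 per condition, numbered 1 to 3. The labels do not say whether each membrane had its own culture, so every p-value measures spread among membranes only, and part or all of that spread may be technical.

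Cytochrome c oxidase (complex IV) ends the mitochondrial electron transport chain by passing electrons to oxygen and pumping protons. ATP synthase (complex V) lets those protons back through a ring of c subunits, whose turning drives ATP formation in the catalytic head of alpha and beta subunits, while a stalk that holds the b and d subunits keeps the head from turning. Cytochrome c oxidase is a long-standing candidate in models of oxygen sensing by the glomus cells of the carotid body, because it is the site where oxygen is used.

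Signal differed between membranes before any comparison was made. Chronic hypoxia membrane 3 had a lowest intensity of 14591, against 309 to 412 on the others. Chronic hypoxia membrane 2 had the fewest genes above background, 72 against 139 to 205. Background was judged on each membrane from its own dim spots: a spot counted as above background if it passed the median plus 3 spreads, the spread being the root mean square distance of the lower values from the median. Rank correlations across genes, which are not independent replicates, ran from 0.267 to 0.580 for all pairs of membranes except chronic hypoxia 1 and 3, at 0.772. Of the glomus cell markers on the array, the dopamine transporter Slc6a3, carboxypeptidase E, acetylcholinesterase and dopamine beta-hydroxylase were above background on 6 membranes. Dopa decarboxylase, chromogranin A and synaptophysin were above background on 0 membranes. Endothelial Nos3 was above background on 6 membranes and the matrix protease Mmp2 on 4, while the 3 immune markers were above background on 0. The summed intensity of the 7 glomus markers other than dopamine beta-hydroxylase was 112143 to 228372 in normoxia and 128715 to 228190 in chronic hypoxia. These sums do not compare glomus content, since every spot of chronic hypoxia membrane 3 carries its raised floor and acetylcholinesterase was at the ceiling on 2 membranes. In such mixed cultures, fewer cells of a type and less RNA per cell cannot be told apart.

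Of the 14 spots, 5 passed background on 3 or more membranes, and 6 passed it on none. Over the whole array 152 genes (12.8%) reached 3 membranes and 867 (73.2%) reached none. The 5 spots were the ATP synthase genes Atp5f1b and Atp5mc2 and the cytochrome c oxidase genes mt-Co1, Cox4i1 and Cox5b. No member spot lay within 5% of the ceiling of the scan. Chronic hypoxia membrane 2 had 0 of the 14 above background, and the other membranes had 2, 4, 6, 5 and 6 in the order normoxia 1 to 3, chronic hypoxia 1 and chronic hypoxia 3.

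No member passed the test between chronic hypoxia and normoxia. In limma, with Benjamini-Hochberg adjustment over 1038 tested genes, 0 of the 14 members had an adjusted p under 0.05, against 0% of the tested genes. At an unadjusted p under 0.05 the count was 0 of 14 members, against 7.23% of the tested genes. Adjusted p-values of the members ran from 0.664 to 0.975. The 95% intervals of the differences reached 1.19 to 1.79 on the log2 scale to either side of the estimate, so changes of 2-fold could not be told from 0 with these 3 membranes per group. Differences below are chronic hypoxia minus normoxia, on the scale of normalized log2 intensity. Their size depended on the background correction. Without it, Atp5pd went from -0.97 to -0.38 and Atp5mc1 from -0.98 to -0.47, both spots at background, and no member's difference grew. Whether the scale understates or overstates changes of dim spots was not tested.

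**Figure D1:**
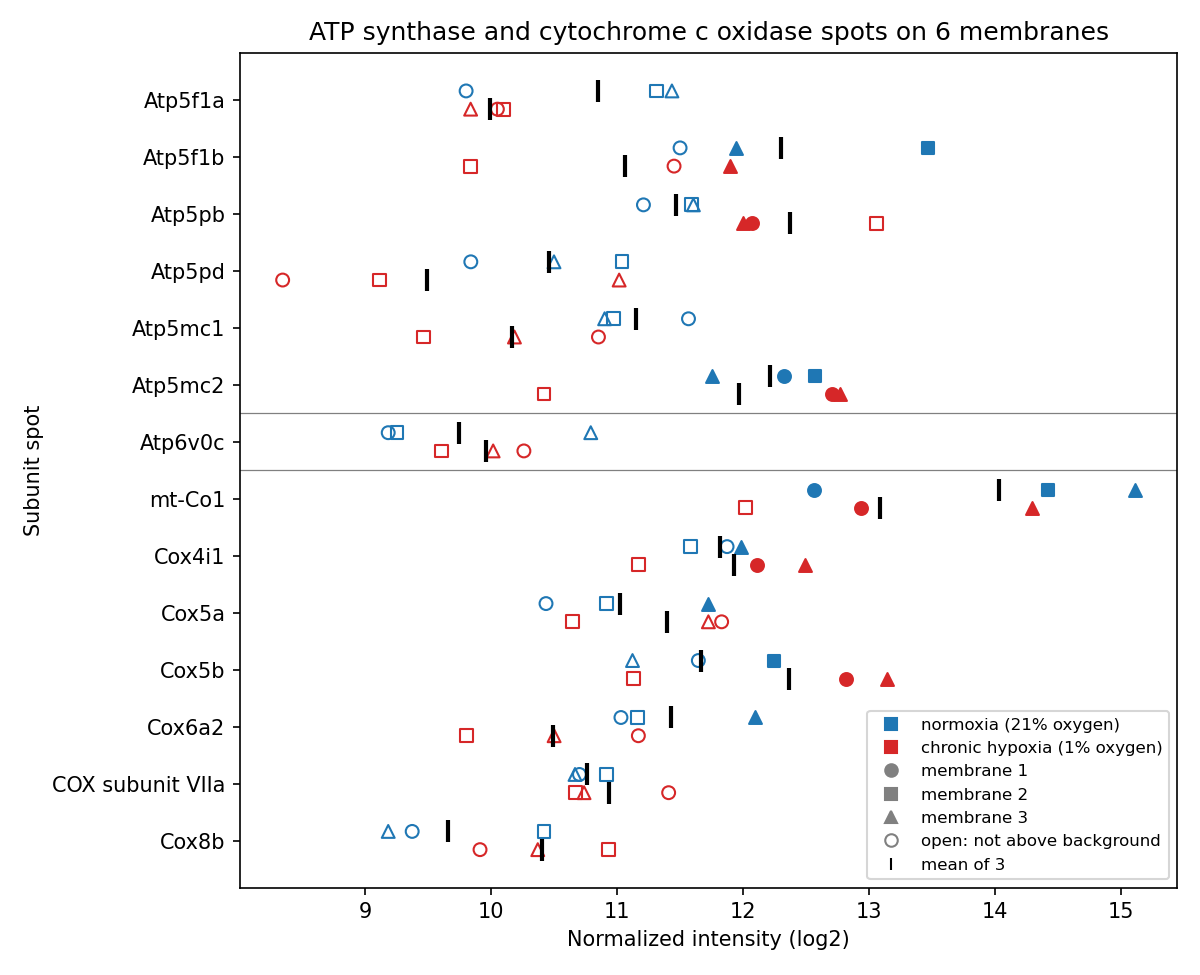
Normalized log2 intensity (x axis) of the 14 spots (y axis) on the 3 normoxia membranes (blue) and the 3 chronic hypoxia membranes (red), with the marker shape giving the membrane number, open markers spots not above background and black bars the mean of 3. The groups overlap for every spot except Atp5pb, which was higher in chronic hypoxia, and Atp5mc1, which was lower and at background throughout. Of all tested genes, 13.9% had groups without overlap.

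The promoters of 3 ATP synthase genes are shown. They were chosen because Atp5pb and Atp5mc1 were the members whose normalized groups did not overlap, in opposite directions, and Atp5f1b had the lowest estimate. Groups without overlap were found for 2 of the 14 members, against a similar share of 13.9% of the tested genes. Each line gives the 250 bases before the start of the gene in RefSeq (build GRCr8), 5′ to 3′ on the gene's strand. Capitals mark ACGTG on either strand, the letters at the core of many sites bound by hypoxia-inducible factors, and CACGTG holds such a match on both strands at once. Atp5pb lies on the minus strand (chr2:196123738-196123987), Atp5mc1 on the minus strand (chr10:81523346-81523595) and Atp5f1b on the plus strand (chr7:1099808-1100057).
Atp5pb: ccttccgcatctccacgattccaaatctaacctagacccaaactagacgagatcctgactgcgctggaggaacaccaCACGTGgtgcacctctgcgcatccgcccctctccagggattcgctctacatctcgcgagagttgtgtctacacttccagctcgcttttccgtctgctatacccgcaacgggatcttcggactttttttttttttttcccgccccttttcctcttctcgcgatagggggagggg
Atp5mc1: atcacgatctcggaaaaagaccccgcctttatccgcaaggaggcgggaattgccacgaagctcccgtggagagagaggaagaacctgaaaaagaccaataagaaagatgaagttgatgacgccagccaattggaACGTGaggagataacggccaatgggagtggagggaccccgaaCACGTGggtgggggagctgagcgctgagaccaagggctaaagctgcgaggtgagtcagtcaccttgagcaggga
Atp5f1b: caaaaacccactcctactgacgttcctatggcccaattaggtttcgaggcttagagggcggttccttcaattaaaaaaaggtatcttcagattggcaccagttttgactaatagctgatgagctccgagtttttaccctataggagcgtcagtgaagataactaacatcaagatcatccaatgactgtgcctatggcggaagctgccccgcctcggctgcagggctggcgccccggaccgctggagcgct
Atp5pb has 1 marked stretch, which begins 173 bases before the start, Atp5mc1 has 2, at 116 and 74 bases, and Atp5f1b has none in this window. Of 11 members with a promoter in the table, 5 hold ACGTG (Atp5mc1, Atp5pb, Cox4i1, Cox5a and Cox8b), against 16.9% of 27457 promoters of the same length. The palindromic consensus of the nuclear respiratory factor NRF1 was in 1 of the 11 (Atp5mc2), against 0.849% of all promoters, and CCGGAAG on either strand, the core bound by ETS factors, in 2 (Atp5f1a and Cox5b), against 7.74%. These are letter matches, not measured sites. Base composition was not matched between members and other promoters, and the membranes hold no measure of promoter activity.

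The catalytic head of ATP synthase was represented by its alpha and beta subunits. Atp5f1b, the beta subunit that carries the catalytic sites, had intensities of 3674, 10764 and 7967 on normoxia membranes 1 to 3. On chronic hypoxia membranes 1 to 3 it had 2634, 2784 and 19619. Background was passed on 3 membranes, namely normoxia 2, normoxia 3 and chronic hypoxia 3. After normalization the log2 mean under normoxia was 12.30 ± 1.03 (SD, n = 3), and under chronic hypoxia it was 11.06 ± 1.08 (SD, n = 3). The difference of -1.24 (SE 0.74, limma adjusted p = 0.664) was the lowest of the 14, and the exact two-sided permutation p was 0.2, where 3 against 3 membranes cannot go below 0.10. The groups overlapped: normoxia 1 (11.50) lay below chronic hypoxia 3 (11.89), and chronic hypoxia 2 (9.84) lay below all others. Without chronic hypoxia membrane 2 the difference was -0.69, and without normoxia membrane 2 it was -0.65.

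Atp5f1a, the alpha subunit that alternates with beta in the head, was above background on no membrane. Its normalized log2 intensities were 9.80, 11.32 and 11.43 in normoxia and 10.05, 10.10 and 9.84 in chronic hypoxia. The chronic hypoxia values were close together, and normoxia 1 lay below all of them. The difference was -0.86 (SE 0.61, limma adjusted p = 0.764). No fold is given for a spot at background in both groups.

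Of the stalk subunits, Atp5pb was the single member higher in chronic hypoxia without overlap after normalization. Atp5pb, whose promoter is printed above, encodes subunit b, the long helix of the stalk. Its intensities were 3206, 5167 and 5170 in normoxia and 3516, 6091 and 20031 in chronic hypoxia. As multiples of the membrane's median these overlapped, at 1.32, 1.52 and 1.93 in normoxia and 2.06, 1.79 and 1.22 in chronic hypoxia. The raised floor of chronic hypoxia membrane 3 lowers its multiple. Normalized, its normoxia values were 11.21, 11.59 and 11.60, while its chronic hypoxia values were 12.07, 13.06 and 11.997. The difference was 0.91 (SE 0.56, limma adjusted p = 0.690, exact permutation p = 0.1). Groups that did not overlap were found for 2 of the 14 members, against 13.9% of the tested genes, and with chronic hypoxia higher for 1 member, against 6.45%. Atp5pb was above background on chronic hypoxia membranes 1 and 3 and on no normoxia membrane. Set against the dimmest signal above background there, it was 1.33-fold higher in chronic hypoxia, a value that is not a strict bound because its highest level came from membrane 2, where the spot was not above background. The difference was 0.54 with median scaling and 0.36 without normalization. In the 6 fits that left out 1 membrane it ran from 0.62 to 1.05, where groups without overlap all but fix the sign.

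Atp5pd, subunit d of the same stalk, was above background on no membrane. It had 9.84, 11.04 and 10.50 in normoxia and 8.35, 9.11 and 11.02 in chronic hypoxia. Its chronic hypoxia values spread widely, and membrane 3 lay within the normoxia range. The difference was -0.97 (SE 0.74), with the same limma adjusted p of 0.764.

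The c ring was represented by a pair of genes whose mature proteins are the same. Atp5mc1, the P1 gene, was above background on no membrane, with 11.57, 10.97 and 10.90 in normoxia and 10.85, 9.46 and 10.18 in chronic hypoxia. These groups did not overlap (difference -0.98, SE 0.59, limma adjusted p = 0.664, exact permutation p = 0.1), and with chronic hypoxia lower that holds for 7.42% of the tested genes. The gap was small, since chronic hypoxia 1 lay at 10.85 and normoxia 3 at 10.90, and both were at background.

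Atp5mc2, the P2 gene, was above background on all membranes but chronic hypoxia 2. Its intensities were 5326, 7027 and 6206 in normoxia and 5842, 3306 and 24411 in chronic hypoxia. Its normalized values were 12.32, 12.57 and 11.75 under normoxia and 12.70, 10.42 and 12.77 under chronic hypoxia, so that 2 chronic hypoxia membranes were above every normoxia value and 1 was below. The difference was -0.25 (SE 0.72, limma adjusted p = 0.938) with an interval of -1.84 to 1.34. Leaving out chronic hypoxia membrane 2 turned it to 0.58, while leaving out chronic hypoxia membrane 3 gave -0.64. In the authors' deposited table, which gives 1 normalized intensity per condition, Atp5mc2 had 4616 under chronic hypoxia against 1371 under normoxia, which is 3.37 times as high and opposite in direction to the fitted difference.

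The vacuolar member Atp6v0c, the proteolipid of the pump that acidifies synaptic and secretory vesicles, was above background on no membrane. Its normalized log2 intensity ran from 9.18 to 10.79 in normoxia and from 9.61 to 10.26 in chronic hypoxia, so the chronic hypoxia values lay inside the normoxia range, with a difference of 0.22 (SE 0.62).

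Subunit I of cytochrome c oxidase, mt-Co1, is encoded by mitochondrial DNA and holds the site where oxygen is reduced. Its intensities were 7094, 18029 and 60820 under normoxia and 7197, 5060 and 39767 under chronic hypoxia. It was above background on all membranes but chronic hypoxia 2. The normalized log2 mean was 14.03 ± 1.32 (SD, n = 3) under normoxia, against 13.08 ± 1.14 (SD, n = 3) under chronic hypoxia. The difference of -0.95 (SE 0.81, limma adjusted p = 0.784, exact permutation p = 0.4) had an interval of -2.74 to 0.84. The groups overlapped, and the lowest normoxia value (12.56, membrane 1) lay below 2 of the chronic hypoxia values. Leaving out normoxia membrane 3 gave -0.39, and leaving out chronic hypoxia membrane 2 gave -0.35. In the authors' deposited table mt-Co1 had 23557 under normoxia against 6171 under chronic hypoxia, which is 3.82 times as high.

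The other cytochrome c oxidase members are encoded in the nucleus. Cox5b is a subunit on the matrix side that binds zinc, and the deposited name of its spot also names subunit VIa. The spot had intensities of 3928, 6403 and 3815 in normoxia and 6421, 4127 and 28267 in chronic hypoxia. It was above background on normoxia membrane 2 and on chronic hypoxia membranes 1 and 3. The normalized values of Cox5b were 11.64, 12.24 and 11.12 under normoxia and 12.82, 11.13 and 13.14 under chronic hypoxia, so that chronic hypoxia 1 and 3 were above every normoxia value and chronic hypoxia 2 lay beside the lowest of them. The difference was 0.69 (SE 0.67, limma adjusted p = 0.832, exact permutation p = 0.3). Leaving out chronic hypoxia membrane 2 raised it to 1.46, and leaving out chronic hypoxia membrane 3 lowered it to 0.30. In the authors' deposited table Cox5b was listed at 1849 in chronic hypoxia and at 0 in normoxia.

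Subunit IV (Cox4i1) takes part in regulating the enzyme, and the deposited name does not say which isoform the spot detects. It was above background on normoxia membrane 3 and on chronic hypoxia membranes 1 and 3. The normalized log2 mean was 11.81 ± 0.21 (SD, n = 3) under normoxia, against 11.92 ± 0.68 (SD, n = 3) under chronic hypoxia. The difference of 0.11 (SE 0.57, limma adjusted p = 0.975) had an interval of -1.16 to 1.38 and was -0.00077 with median scaling, -0.18 without normalization and -0.17 without chronic hypoxia membrane 3.

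Cox5a and Cox6a2 were above background on normoxia membrane 3 alone. Cox5a, the partner of Cox5b on the matrix side, had 10.44, 10.91 and 11.72 in normoxia and 11.83, 10.64 and 11.72 in chronic hypoxia, so the groups overlapped in part, with chronic hypoxia 1 above and normoxia 1 below all values of the other group. Cox6a2, the heart form of subunit VIa, had 11.03, 11.16 and 12.09 in normoxia and 11.17, 9.80 and 10.50 in chronic hypoxia. For both, the bound that background allows is under 1, so no fold is given. Subunit VIIa, whose isoform the deposited name does not give, and Cox8b, the heart form of subunit VIII, were above background on no membrane. Subunit VIIa ran from 10.67 to 10.91 in normoxia and from 10.67 to 11.41 in chronic hypoxia, and Cox8b from 9.18 to 10.42 and from 9.91 to 10.93. Differences were 0.37 (SE 0.61) for Cox5a, -0.94 (SE 0.61) for Cox6a2, 0.18 (SE 0.54) for subunit VIIa and 0.75 (SE 0.60) for Cox8b, with limma adjusted p-values of 0.878, 0.726, 0.938 and 0.764.

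**Figure D2:**
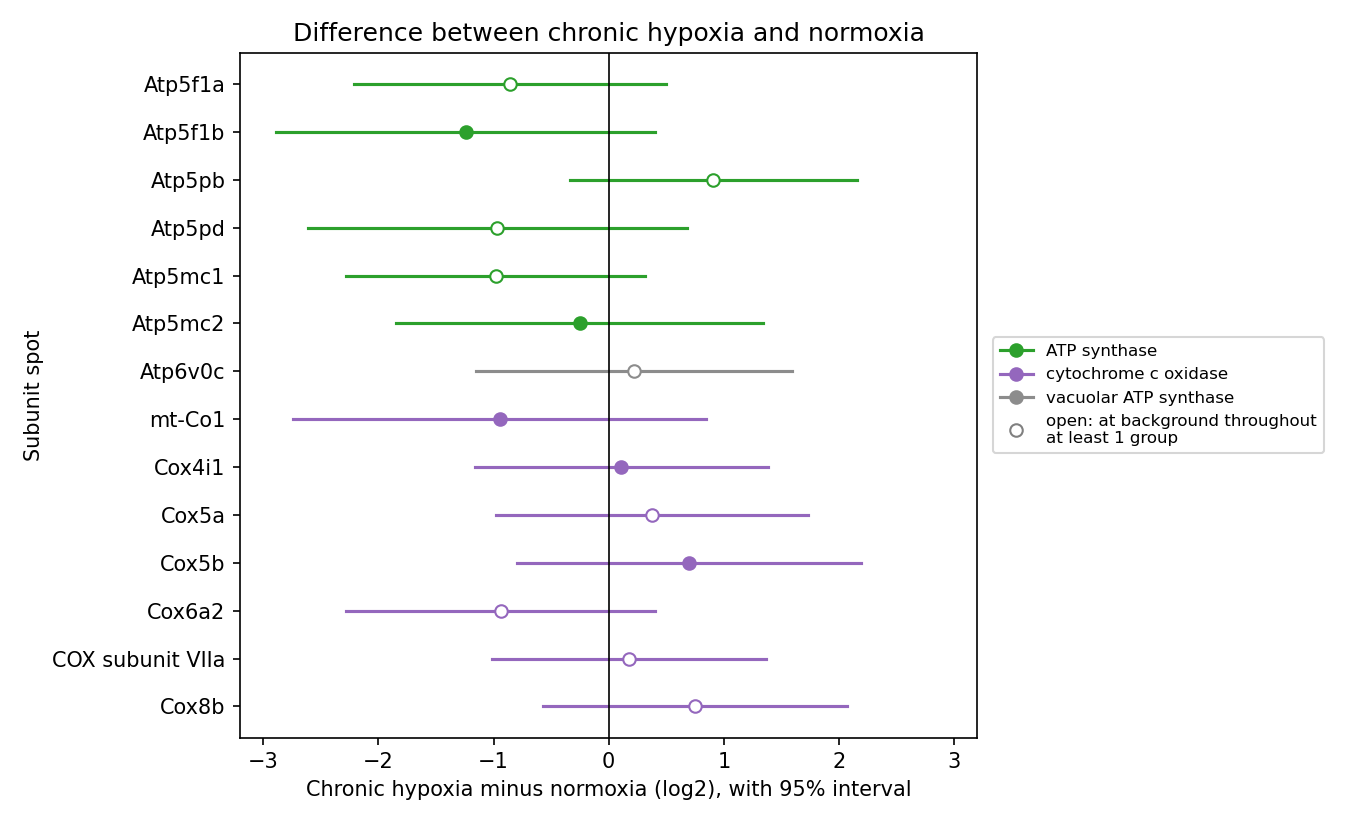
Difference of the group means (x axis, chronic hypoxia minus normoxia, log2) for the 14 spots (y axis), with bars for limma's 95% interval and open circles where all membranes of at least 1 group were at background. All 14 intervals include 0, and the estimates run from -1.24 for Atp5f1b to 0.91 for Atp5pb.

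Side by side, most ATP synthase estimates were below 0 and most cytochrome c oxidase estimates above it, and the difference between the enzymes was not tested. Without normalization the split of cytochrome c oxidase turned, with 4 of 7 members lower and a median of -0.020. Of the 6 ATP synthase members 5 were lower in chronic hypoxia, and of the 7 cytochrome c oxidase members 2 were, against 48.2% of the tested genes. The median difference was -0.91 for ATP synthase and 0.18 for cytochrome c oxidase, against 0.03 over all tested genes. Both medians were set by spots above background on no membrane, the first by Atp5pd and Atp5f1a and the second by subunit VIIa. Of the 5 lower ATP synthase spots, only Atp5f1b and Atp5mc2 were above background on any membrane. The ATP synthase median was -0.40 with no background correction and -0.55 without chronic hypoxia membranes 2 and 3. Among the 6 nuclear-encoded cytochrome c oxidase members 5 were higher, against 51.8% of the tested genes, with a median of 0.28. The single mitochondrially encoded member, mt-Co1, was lower (-0.95), and so was the nuclear-encoded Cox6a2 (-0.94). These counts take in the spots at background, and no test goes with them. Medians over the members of each enzyme were also taken membrane by membrane. They were 11.35, 11.45 and 11.52 in normoxia and 11.15, 9.97 and 11.45 in chronic hypoxia for ATP synthase. For cytochrome c oxidase they were 11.03, 11.16 and 11.72 in normoxia and 11.83, 10.93 and 11.72 in chronic hypoxia. For ATP synthase, chronic hypoxia 2 lay apart below the other membranes, while for cytochrome c oxidase it was lowest but close to normoxia 1, and the groups overlapped for both. Leaving it out gave medians of -0.67 and 0.48.

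The files also differ in the step in which their values come. Normoxia 1 and chronic hypoxia 1 have a step of about 52, normoxia 2 and 3 and chronic hypoxia 2 one of about 103.5, and chronic hypoxia 3 has neither. The labels do not say what the step stands for. Between normoxia 1 and chronic hypoxia 1 the ATP synthase median was 0.10 and the cytochrome c oxidase median 0.54. Between chronic hypoxia 2 and the mean of normoxia 2 and 3 they were -1.57 and -0.62. Atp5f1b differed by -0.05 in the first set and -2.87 in the second, mt-Co1 by 0.37 and -2.74, and Cox5b by 1.17 and -0.55. Atp5pd kept its direction, with -1.49 and -1.66, as did Cox8b with 0.54 and 1.13. Atp5pb had 0.86 and 1.46, and Atp5mc1 -0.71 and -1.48. For the last 2 the direction could not turn, because their normalized groups did not overlap. Of these 4, Atp5pb alone was above background on any membrane.

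**Figure D3:**
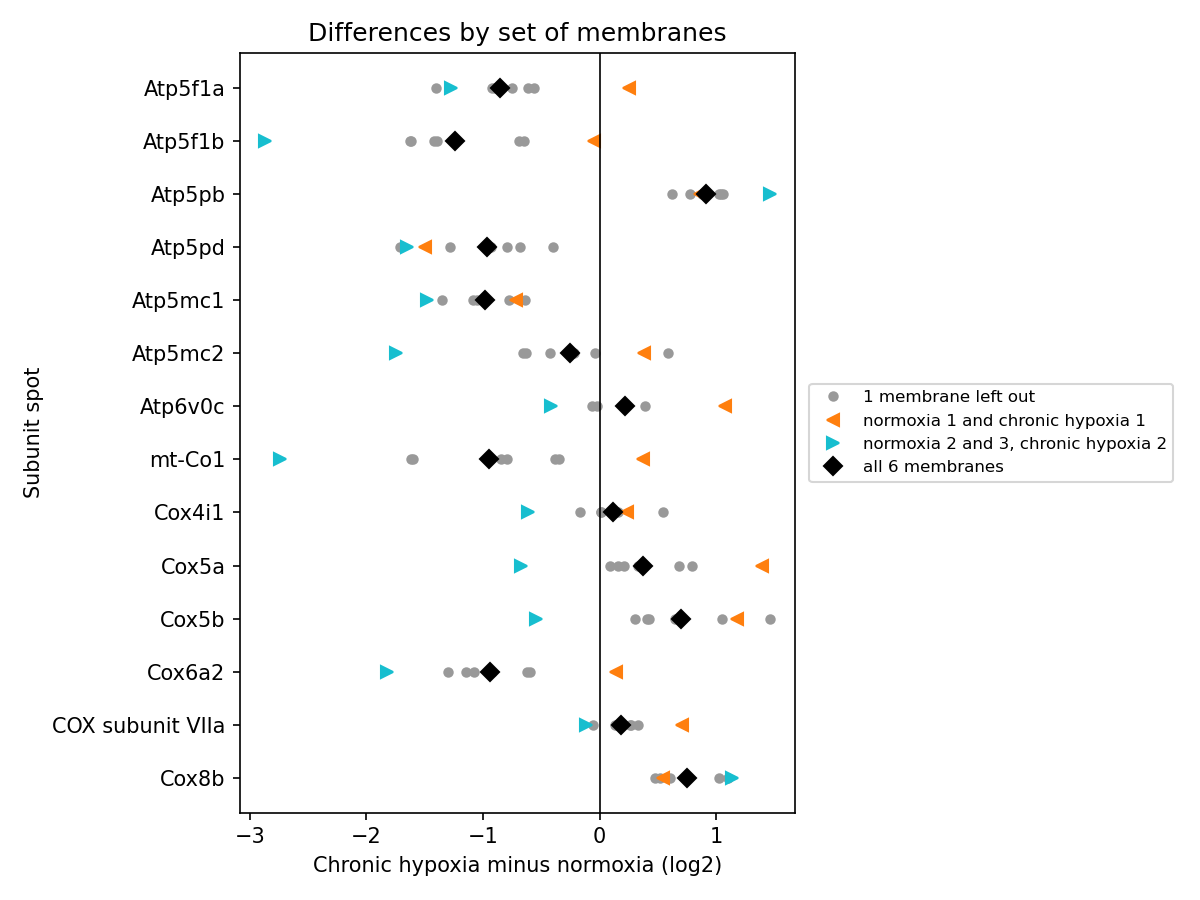
Difference (x axis, chronic hypoxia minus normoxia, log2) of each of the 14 spots (y axis) with all 6 membranes (black), with 1 membrane left out (grey), and within the sets of files that share a value step (orange and cyan; chronic hypoxia 3 belongs to neither). The orange and cyan values of mt-Co1, 0.37 and -2.74, fall on opposite sides of 0. Those of Atp5pb, 0.86 and 1.46, could not, because its normalized groups do not overlap.

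Position on the array was shared by most members. Of the 7 cytochrome c oxidase spots 6 lie between C03f and C03l, and 4 ATP synthase spots lie side by side at C04a to C04d. On normoxia membrane 3 the spots from C03a to C03g all read at least 7.34 times the membrane's median. Some of them were bright elsewhere too: C03c and C03e read 15.4 and 13.98 times the median on normoxia membrane 1, and 20.2 and 15.1 times on chronic hypoxia membrane 1. On normoxia membrane 3 the vacuolar ATPase F spot between mt-Co1 and Cox6a2 read 58029, or 21.6 times the membrane's median, and mt-Co1 read 22.7 times the median. The spots that follow read 3.36 (Cox6a2), 3.08 (Cox4i1), 2.20 (Cox5a) and 1.08 (subunit VIIa) times the median. On normoxia membrane 1 the same vacuolar ATPase F spot read 1.36 times the median and the 4 spots 1.23, 1.77, 0.98 and 1.08. On normoxia membrane 2 the vacuolar ATPase F spot read 3.77 times the median and the 4 spots 1.27, 1.52, 1.18 and 1.18. The calls of Cox6a2, Cox5a and Cox4i1 above background in normoxia all come from membrane 3, and the part of neighbouring signal in them was not tested.

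**Figure D4:**
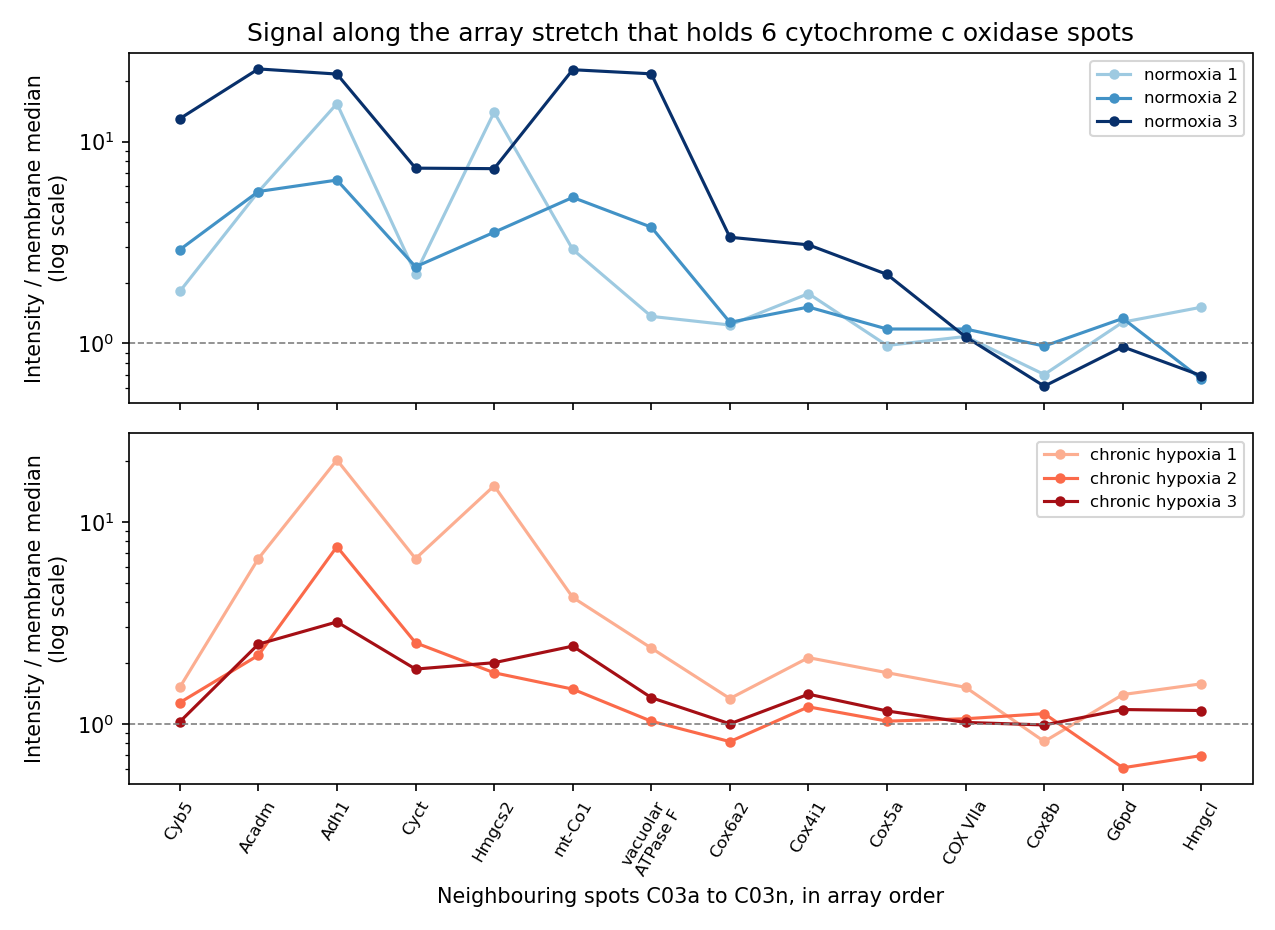
Intensity divided by the membrane's median (y axis, log scale) at the 14 neighbouring spots C03a to C03n (x axis, array order), for normoxia (top) and chronic hypoxia (bottom), 1 line per membrane, with a dashed line at the median. On normoxia membrane 3 values fall from 22.7 at mt-Co1 to 1.08 at subunit VIIa, with Cox6a2, Cox4i1 and Cox5a in between.

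Few other genes of the pathway are on the array, and none passed. The single other electron transport gene, annotated as testis-specific cytochrome c, was above background on 6 membranes. Its normalized values were 12.38, 13.06 and 13.31 under normoxia and 13.47, 14.06 and 13.33 under chronic hypoxia, with a difference of 0.70 (SE 0.56, limma adjusted p = 0.764). These groups did not overlap, which with chronic hypoxia higher holds for 6.45% of the tested genes. The gap was small, from 13.31 on normoxia 3 to 13.33 on chronic hypoxia 3. The spot, C03d, is among those near mt-Co1. Of 5 genes that carry or exchange adenine nucleotides or their phosphate, all 5 were lower in chronic hypoxia, against 48.2% of the tested genes, with a median of -0.69 against 0.03, 0 past the test and 3 above background on no membrane. Among them, mitochondrial creatine kinase, which passes phosphate from ATP to creatine, was the 1 of the 5 with an unadjusted p under 0.05, against 7.23% of the tested genes (limma adjusted p = 0.645) and was above background on normoxia membrane 3 alone. The 1 gene listed under the citric acid cycle, annotated as a pyruvate dehydrogenase kinase kinase precursor, was above background on no membrane. Of 18 other genes named as ATPases 12 were tested, 6 of them higher and 6 lower, with 0 past the test and a median of 0.12. The vacuolar ATPase F gene, the 1 of these above background on at least 3 membranes, differed by -1.57 (SE 0.91, limma adjusted p = 0.654), and its spot is the neighbour of mt-Co1 described above.

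Patterns over the 6 membranes were compared among the 152 genes that passed background on 3 or more of them, as the root mean square difference of mean-centred log2 profiles. The genes nearest to Atp5f1b were the cytosolic HMG-CoA synthase (0.39), cyclin B1 (0.40) and proteasome component C8 (0.41), where the median over 151 genes was 1.18. Nearest to Atp5mc2 were Hprt1 (0.27), elongation factor 2 (0.29) and prohibitin (0.30), a protein of the inner mitochondrial membrane. Nearest to mt-Co1 were the syntaxin-binding protein Munc18-2 (0.49), cofilin (0.57) and the acyl-CoA dehydrogenase Acadm (0.57), whose spot lies at C03b in the same stretch of the array. Cox4i1 was closest to the TGF-beta masking protein (0.22), Nos3 (0.36), which was near the ceiling on 4 membranes, and Stat3 (0.38). Cox5b was closest to the acyl-CoA dehydrogenase Acadl (0.33), Rps12 (0.33) and lipocortin 2 (0.36). These likenesses also take in whatever sets the membranes apart.

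Over all members, the authors' deposited table held values other than 0 for 9 of 14: 3 of them under both oxygen levels, 3 under 21% oxygen and not 1%, and 3 the other way round. Over the array of 1185 genes, the authors' deposited table held 132 under both, 71 under normoxia alone and 121 under chronic hypoxia alone, and 861 were listed at 0 in both. In the authors' deposited table, those with a value under normoxia alone were Atp5f1b at 6534, Cox4i1 at 1824 and Cox5a at 1302. Those that the authors' deposited table held under chronic hypoxia alone were Cox5b at 1849, Atp5pd at 1793 and Atp6v0c at 3038. For Cox4i1, Cox5a and Atp5pd, the direction in the authors' deposited table was opposite to that of the fitted difference. On the single membranes, Atp5pd and Atp6v0c never passed background. In the authors' deposited table Cox6a2 had 1989 under normoxia and 1727 under chronic hypoxia, and Atp5pb was listed at 0 in both.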

How the data were processed

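The authors scanned the membranes with a phosphorimager and quantified them with AtlasImage V2.0, per the labels' protocols. The deposited membrane values are linear intensities, 1 per gene and membrane. The authors' deposited table holds 1 intensity per gene and condition, a mean of 3 membranes that was normalized with a coefficient from the average signal, per the series' design text. Whether background was taken off is not given in the sources used here.

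Background was corrected with normexp (offset 50), followed by log2 and quantile normalization of all 6 membranes. A gene was tested if it passed the 25th percentile on 3 or more membranes (1038 of 1185, among them all 14 members) with lmFit and eBayes, group as the only term, in limma 3.58.1 and R 4.3.3. Calls used a Benjamini-Hochberg adjusted p under 0.05. The exact permutation p of a single member came from all 20 ways to split the 6 membranes. The number of arrays limits the precision. Tables and plots were made in Python 3.11.15 (pandas 2.3.3, matplotlib 3.10.9).

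The rule names every member, up to 4 listed pathway genes with the smallest p among those above background on at least 3 membranes, and the 3 genes nearest in pattern to each member that reached 3 membranes. Other named genes were chosen after their values were seen. Members and lists were chosen with earlier results of these data known. Symbols were assigned by hand from the deposited names, and 12 of 14 were found in the rat RefSeq table of GRCr8; mt-Co1 and subunit VIIa were not. Promoters were found for 11. Alternatives covered background correction, normalization, filters, blocks, weights, membranes left out and the authors' deposited table; averaging chronic hypoxia 1 and 3, and leaving out chronic hypoxia 2 and 3, were added after the data were seen.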

Additional observations from a re-analysis of the deposited data

How the results depend on the processing

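With limma, 0 genes had an adjusted p under 0.05 in every alternative fitted, and the lowest adjusted p of a member was 0.342. Genes at an unadjusted p under 0.05 numbered 75, against 146 with membrane weights, 41 without chronic hypoxia membranes 2 and 3, 46 with chronic hypoxia 1 and 3 as 1 replicate, 10 when genes had to pass background on 3 membranes (fewer genes tested), and 42 to 105 with 1 membrane left out. Atp5f1b, Atp5pb, Atp5pd, Atp5mc1 and Cox8b kept their direction in every refit of the membrane values that gave one. The authors' deposited table gives no log2 difference for them, and its direction for Atp5pd was opposite. For Atp5pb and Atp5mc1, whose normalized groups did not overlap, refits on fewer membranes could hardly turn the sign. The ATP synthase median was -0.91, and -0.63 to -1.03 with 1 membrane left out; the cytochrome c oxidase median was 0.18, with 0.0091 to 0.48. The first was -0.40 with no background correction and -0.55 without chronic hypoxia 2 and 3, and the second turned to -0.020 without normalization, where 4 of 7 members were lower in place of 2. Within the value step of about 52 the ATP synthase median was 0.10, and within that of about 103.5 the medians were -1.57 and -0.62. Without normalization the median gene shifted by -0.17.

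The replicate number as a block gave 0 calls and 83 genes at an unadjusted p under 0.05. Deviations of same-numbered membranes correlated at 0.09, 0.11 and 0.02, and membranes 3 did not match each other best, so the numbers were not taken to pair the membranes.

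Signs that turned, each with the cause not tested: Atp5mc2 to 0.055 (cyclic loess), 0.43 (membrane weights), -0.65 to 0.58 (1 membrane left out, positive without chronic hypoxia 2), 0.55 (without chronic hypoxia 2 and 3), 0.38 (step of about 52) and 1.75 (the authors' deposited table); Cox4i1 to -0.00077 (median scaling), -0.18 (no normalization), -0.25 (step as a block), -0.17 to 0.54 (1 membrane left out, negative without chronic hypoxia 3), -0.079 (chronic hypoxia 1 and 3 as 1) and -0.62 (step of about 103.5). Within the step of about 52, Atp5f1a turned to 0.25, mt-Co1 to 0.37 and Cox6a2 to 0.14. Within the step of about 103.5, Atp6v0c turned to -0.42, Cox5a to -0.68, Cox5b to -0.55 and subunit VIIa to -0.12. Subunit VIIa also turned to -0.020 without normalization and ran from -0.059 (without chronic hypoxia 1) to 0.33 with 1 membrane left out. Atp6v0c ran from -0.065 to 0.39 and was negative without normoxia 1 or 2. Signal over background limits 9 of the 14 spots, which reached fewer than 3 membranes.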
